A study of Homo sapiens with 6 samples.

Results

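The genes described here encode the replicative DNA polymerases and the sliding clamp that holds them on DNA. They were chosen by name as the subunits of polymerase alpha-primase (POLA1, POLA2, PRIM1 and PRIM2), polymerase delta (POLD1, POLD2 and POLD3) and polymerase epsilon (POLE and POLE2), together with PCNA. A gene was measured through a probe set annotated to it alone, and 9 of the 10 named genes had one, out of 22413 genes measured in this way. PRIM2 had none, since its single probe set also carries PRIM2BP. The data come from HCT-shSLBP cells, a line derived from HCT116, a human colon cancer line. By its name the line carries a hairpin RNA that targets SLBP, and it is the same line in both groups. SLBP is the protein that binds the stem-loop of histone mRNAs. Doxycycline at 2 µg/ml was given to 3 cultures, called Dox below, and the other 3 cultures were left untreated and are called Control. Each culture was measured on 1 array. Since no cells lacking the hairpin received the drug here, effects of doxycycline and of the hairpin cannot be told apart. The promoter that drives the hairpin, the time of exposure and whether the line is 1 clone are not given in the sources used here.

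Polymerase alpha-primase starts every new DNA strand: the primase lays down a short RNA primer and the polymerase extends it with a little DNA. Polymerase epsilon then carries synthesis of the leading strand and polymerase delta that of the lagging strand. PCNA is a ring that encircles DNA, tethers these polymerases and recruits other enzymes to the fork. Genes of this machinery are known targets of E2F transcription factors and are most active around the start of S phase.

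All values below are log2 RMA signals, and all changes are log2 differences, Dox minus Control. RMA corrects for background, brings the arrays to 1 common distribution and merges the probes of a set into 1 value. Signals can be compared between arrays for a given gene but not between genes. Differences between genes within an array are used below only for how they shift between the groups. SLBP, the target of the hairpin, checked the labels. Its signal was 7.38, 7.19 and 7.32 in Dox cultures, against 8.09, 8.04 and 8.08 in Control cultures. Every Dox culture lay below every Control culture, and the change was -0.77 (SE 0.0553, limma adjusted p = 0.00322). The 9 measured members all were above 4.51, a yardstick for background set at the 95th percentile of 366 olfactory receptor genes. Most genes pass this yardstick, 14784 of the 22413 being above it. Of the 8 colon epithelial markers checked, all lay above that level, VIL1 just so at a mean of 4.56.

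The replicative polymerase genes were lower in Dox cultures. Of the 9 measured, 6 fell, none rose and 3 did not pass the test, where "fell" and "rose" mean a limma p under 0.05 after Benjamini-Hochberg adjustment over all 22413 genes. Over all genes, 3.27% fell and 2.93% rose. At an unadjusted p under 0.05, 8 of the 9 were lower and none was higher. In all 9, every Dox culture lay below every Control culture, an arrangement found in 16.7% of all genes (12.5% had every Dox culture above). The median change of the 9 was -0.30, which is 18.8% less signal, beside a median of -0.02 over all genes. The exact two-sided permutation test gave p = 0.1 for each of the 9, the smallest that 3 cultures against 3 allow. In RNA from whole cultures, fewer cells in S phase and less of these mRNAs per cell cannot be told apart.

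**Figure D1:**
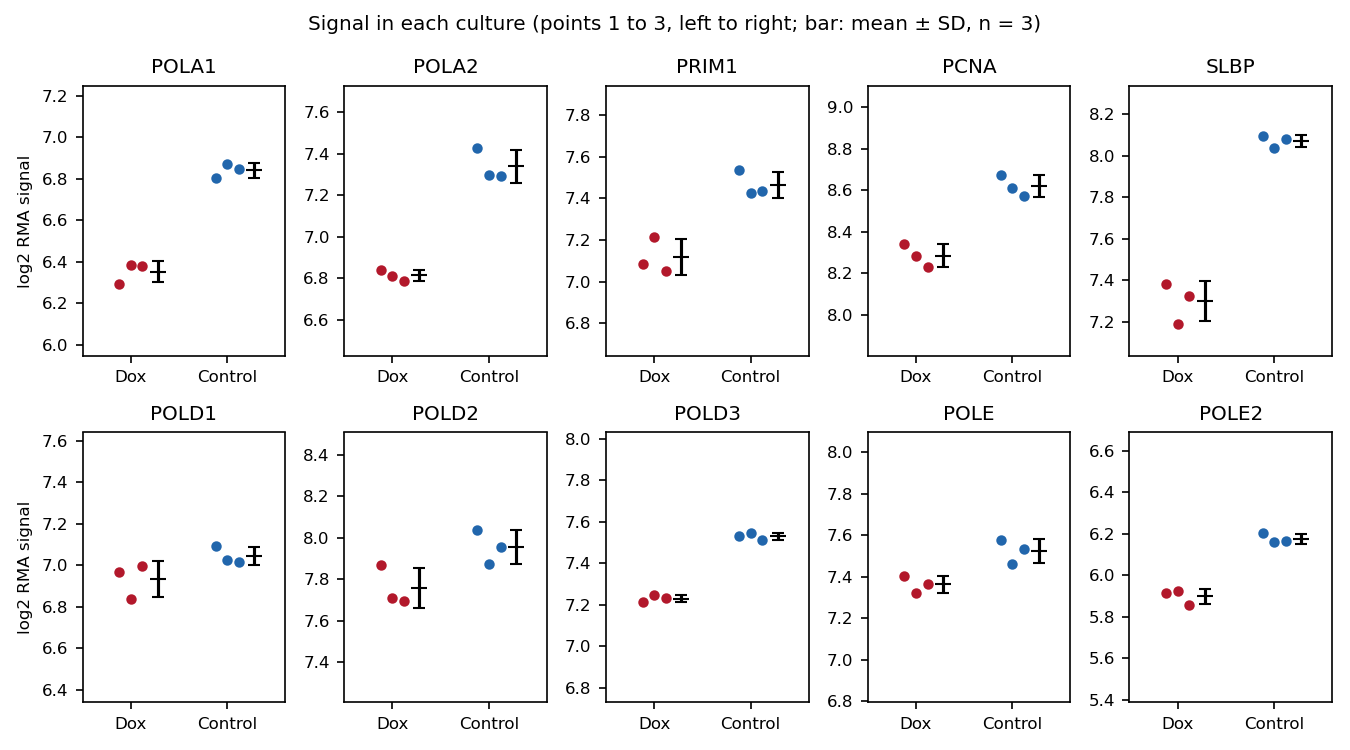
Log2 RMA signal of the 9 measured genes and SLBP in each Dox and Control culture, 1 panel a gene, every panel spanning the same range of log2 units. Points are cultures 1 to 3 from left to right and bars are mean ± SD (n = 3). In POLA1 and POLA2 the groups lie over 0.4 apart, and in POLD1 and POLD2 the nearest Dox and Control points almost touch.

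The polymerase alpha subunits POLA1 and POLA2 showed the largest changes of the set. POLA1, the catalytic subunit of polymerase alpha, had signals of 6.29, 6.38 and 6.38 in Dox cultures, against 6.80, 6.87 and 6.85 in Control cultures. The lowest Control value stood 0.42 above the highest Dox value. The change was -0.49 (SE 0.0428, limma adjusted p = 0.00495), or 71.3% of the Control signal. POLA2, the accessory B subunit that links the polymerase to primase and to the fork, had 6.84, 6.81 and 6.79 in Dox cultures, against 7.43, 7.30 and 7.29 in Control cultures. Dox cultures were close together and all lay at least 0.45 below the Control cultures. Its change of -0.52 (SE 0.0485, limma adjusted p = 0.00575) was in the lowest 0.165% of all genes. PRIM1, the catalytic subunit of primase, had 7.09, 7.21 and 7.05 in Dox cultures, against 7.54, 7.42 and 7.43 in Control cultures. The groups did not overlap, and PRIM1 fell by 0.35 on the log2 scale (SE 0.0565, limma adjusted p = 0.0197). The probe set shared by PRIM2, the large primase subunit, and PRIM2BP cannot be given to either gene. It read 6.45, 6.60 and 6.59 in Dox cultures, against 6.77, 6.77 and 6.79 in Control cultures, a change of -0.23 that did not pass limma's test over all 70523 probe sets (adjusted p = 0.151).

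PCNA fell as well. Its signal was 8.34, 8.28 and 8.23 in Dox cultures, against 8.67, 8.61 and 8.57 in Control cultures. The Dox cultures spanned about as much as the Control cultures, with a gap of 0.23 between the groups. PCNA changed by -0.34 (SE 0.0464), to 79.2% of the Control signal (limma adjusted p = 0.0126).

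In polymerase delta only POLD3 passed the test. POLD3, an accessory subunit that binds PCNA, fell, with 7.21, 7.25 and 7.23 in Dox cultures, against 7.53, 7.55 and 7.51 in Control cultures. Both groups were tight (SD 0.0173 in Dox and 0.0175 in Control), and the change was -0.30 (SE 0.0347, limma adjusted p = 0.00875). POLD1, the catalytic subunit with the proofreading exonuclease, had 6.97, 6.84 and 7.00 in Dox cultures, against 7.09, 7.03 and 7.01 in Control cultures. The groups were separated by only 0.015, and the change of -0.11 (95% interval -0.24 to 0.02) did not pass the test (limma adjusted p = 0.281). POLD2, the accessory subunit that bridges POLD1 and POLD3, had 7.87, 7.71 and 7.70 in Dox cultures, against 8.04, 7.87 and 7.96 in Control cultures. Dox culture 1 came within 0.0063 of Control culture 2, and the change of -0.20 (95% interval -0.35 to -0.05) did not pass after adjustment (limma adjusted p = 0.12).

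In polymerase epsilon POLE2 passed the test and POLE did not. POLE2, the accessory B subunit, fell, with 5.91, 5.92 and 5.86 in Dox cultures, against 6.20, 6.16 and 6.17 in Control cultures. The groups stood 0.23 apart, and the change was -0.28 (SE 0.038, limma adjusted p = 0.0122). POLE, the catalytic subunit, which also proofreads, had 7.40, 7.32 and 7.36 in Dox cultures, against 7.58, 7.46 and 7.53 in Control cultures. The gap was 0.0592, and the change of -0.16 (95% interval -0.27 to -0.05) did not pass the test (limma adjusted p = 0.0859). A miss of the threshold does not show that POLD1, POLD2 and POLE were the same in both groups. Nor does it show that they changed less than POLD3 and POLE2.

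The count of 6 fallen genes depended on single cultures, and the fits without a culture have fewer arrays. POLA1 and POLA2 kept their calls whichever of the 6 cultures was left out, with limma adjusted p of at most 0.0396. Without Dox replicate 3 only these 2 fell, and PCNA (adjusted p = 0.0592), POLD3 (0.0524), POLE2 (0.0607) and PRIM1 (0.0774) did not pass. Without Control replicate 1, 3 fell and PCNA (0.0526), POLE2 (0.0567) and PRIM1 (0.0724) did not pass. PRIM1 also lost its call without Control replicate 2 (0.0535), Control replicate 3 (0.0684) and Dox replicate 1 (0.0501), and POLE2 without Control replicate 3 (0.0594). Sizes moved little: the median change of the 9 lay between -0.31 and -0.29 over these fits. With array weights and with dim genes left out 8 of the 9 fell, POLD2 and POLE being added in both. The count over all genes moved too, from 732 fallen in the reported fit. It was 1714 with array weights and 1413 with dim genes left out, the latter among fewer genes. It was 69 without Dox replicate 3 and 164 without Control replicate 1. Gains and losses of calls in these fits, also in the lists below, are thus not particular to these genes.

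**Figure D2:**
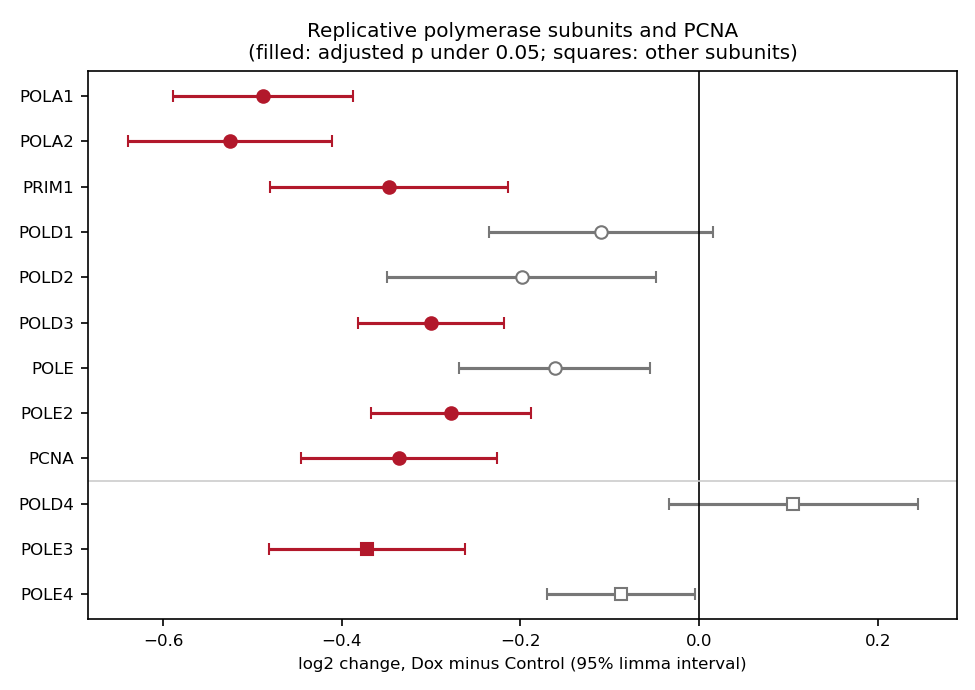
Log2 change, Dox minus Control, with its 95% limma interval, for the 9 measured genes (circles) and 3 further subunits (squares). Filled symbols passed adjusted p under 0.05. POLA2 and POLA1 lie farthest from 0 at -0.52 and -0.49, and the POLD1 interval crosses 0.

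The subunits of a complex were set against its catalytic subunit within each array, which removes any scaling of the array. Of 5 such differences none passed an exact two-sided permutation test over the 6 arrays, which cannot give p under 0.1, and the smallest value after Benjamini-Hochberg adjustment over the 5 was 0.25. POLD3 minus POLD1 was 0.24, 0.41 and 0.23 in Dox cultures, against 0.44, 0.52 and 0.50 in Control cultures. The groups did not overlap, and the difference moved by -0.19 (exact p = 0.1, adjusted p = 0.25). POLE2 minus POLE was -1.49, -1.40 and -1.51 in Dox cultures, against -1.37, -1.30 and -1.37 in Control cultures. These groups did not overlap either, and the difference moved by -0.12 (exact p = 0.1, adjusted p = 0.25). For POLD2 minus POLD1 the shift was -0.09 (exact p = 0.3), for PRIM1 minus POLA1 it was 0.14 (exact p = 0.2), and for POLA2 minus POLA1 it was -0.04 (exact p = 0.6). In these 3 the Dox and Control cultures overlapped, and the shift for POLA2 minus POLA1 turned to 0.03 without Control replicate 1.

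Means over the measured subunits of each complex were compared after their values had been seen, and so without a test. The mean change was -0.45 for 3 subunits of polymerase alpha-primase, -0.20 for 3 of polymerase delta and -0.22 for 2 of polymerase epsilon. Alpha-primase minus delta was -0.61, -0.46 and -0.57 in Dox cultures, against -0.30, -0.28 and -0.30 in Control cultures. Alpha-primase minus epsilon was 0.08, 0.18 and 0.13 in Dox cultures, against 0.37, 0.39 and 0.34 in Control cultures. In both, the Dox cultures lay apart from the Control cultures and on the side of lower alpha-primase. Delta minus epsilon was 0.69, 0.64 and 0.70 in Dox cultures, against 0.66, 0.67 and 0.65 in Control cultures, which overlapped.

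**Figure D3:**
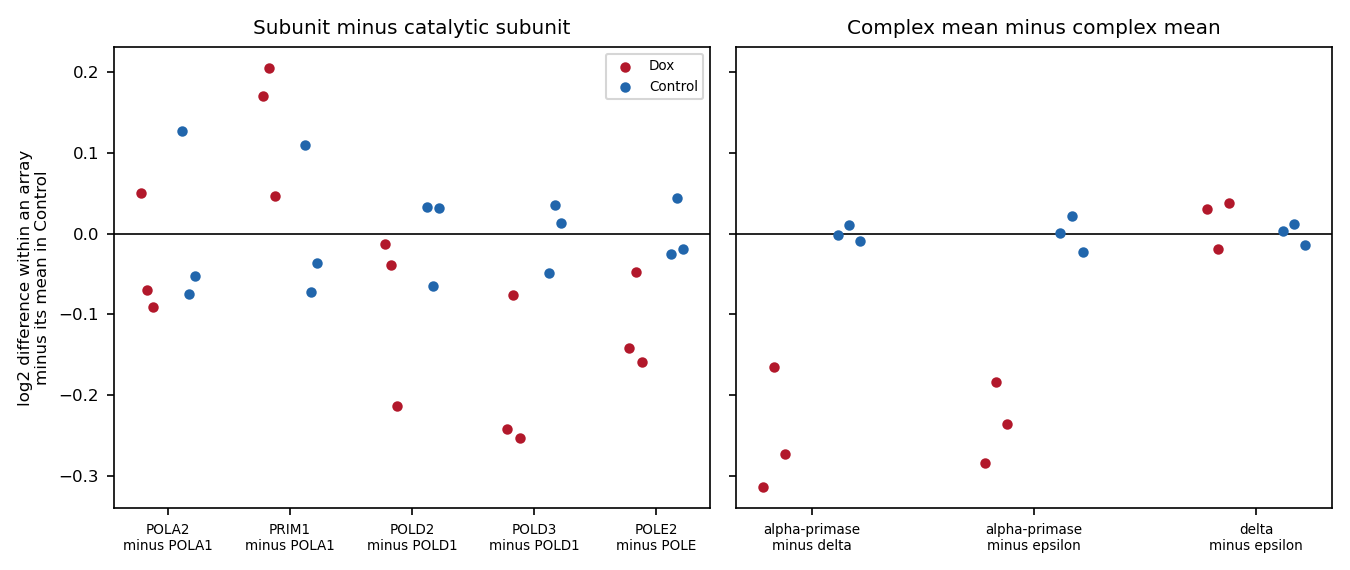
Log2 difference between 2 subunits (left) or between the means of 2 complexes (right) within each array, minus its mean over the Control cultures, with 1 point a culture. The Dox points of POLD3 minus POLD1, POLE2 minus POLE and both differences with alpha-primase lie below all Control points, and the other differences overlap.

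Of 3 further subunits of these enzymes, 1 fell and none rose. POLE3, a histone-fold subunit of polymerase epsilon, had 6.96, 6.83 and 6.88 in Dox cultures, against 7.29, 7.21 and 7.28 in Control cultures. It fell by 0.37 on the log2 scale (SE 0.0464, limma adjusted p = 0.0103), but did not pass without Dox replicate 3 (0.0524) or Control replicate 3 (0.0525). Its histone-fold partner POLE4 changed by -0.09 (limma adjusted p = 0.199). POLD4, the smallest subunit of polymerase delta, had 6.97, 6.85 and 6.83 in Dox cultures, against 6.87, 6.77 and 6.70 in Control cultures. These groups overlapped, and the change was 0.11 (limma adjusted p = 0.349).

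Genes that load, use or meet the polymerases and PCNA were counted in 3 lists. Of 9 clamp loaders and unloaders, which open and close the PCNA ring, 5 fell and none rose, with a median change of -0.21. RFC3 (-0.32) and RFC2 (-0.31), small subunits of the main loader, fell, as did DSCC1 (-0.30) and CHTF8 (-0.31) of the alternative loader. Of 16 PCNA partners and Okazaki fragment enzymes, 8 fell and none rose, with a median of -0.23. They included FEN1 (-0.60), the flap nuclease of the lagging strand, PCLAF (-0.46), a small PCNA-binding protein, UHRF1 (-0.53), which brings in maintenance DNA methylation, and DTL (-0.49), of a ubiquitin ligase that acts on PCNA-bound proteins. Of 15 measured fork factors 8 fell and none rose, with a median of -0.22, among them MCM10 (-0.55), a replication factor that binds polymerase alpha, CLSPN (-0.60), a checkpoint mediator, and the helicase components GINS2 (-0.75) and CDC45 (-0.43). Limma adjusted p of these named genes was at most 0.0214. At an unadjusted limma p under 0.05, 6 of the 9 clamp loaders, 11 of the 16 PCNA partners and 11 of the 15 fork factors were lower. At that threshold 2 fork factors were higher, STN1 (0.19) and CTC1 (0.12), and 1 PCNA partner, CDKN1A (0.19). Their limma adjusted p was 0.0586, 0.14 and 0.132. The count of fork factors past the adjusted threshold as higher was 2 with array weights, and 1 with background subtraction, with dim genes left out, with a trended and robust variance, or with repeated quantile normalization. That of PCNA partners was 1 with array weights or with dim genes left out. Without Dox replicate 3 these 3 lists had 0, 4 and 3 fallen genes, and without Control replicate 3 they had 0, 5 and 3. For the clamp loaders, 7 and 6 were lower at an unadjusted limma p under 0.05 in those fits. Without Control replicate 1 the counts were 1, 5 and 4, without Control replicate 2 they were 3, 5 and 4, and without Dox replicate 2 they were 3, 6 and 5.

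DNA polymerases that do not copy the bulk of the genome had medians near 0. Of 8 measured translesion polymerases and partners, which copy damaged templates, none passed limma's test in either direction, while at an unadjusted p under 0.05 there were 2 lower and 1 higher. The median was 0.02. POLI (0.20, limma adjusted p = 0.0931) and PRIMPOL (-0.14, 0.137) had the smallest adjusted p, PRIMPOL from a mean signal of 4.18, under the olfactory receptor level. POLI passed as higher with dim genes left out (adjusted p = 0.0288), and PRIMPOL as lower with array weights (0.0442). Of 7 repair, mitochondrial and telomere polymerases none fell, and none was lower at an unadjusted p under 0.05. POLG2, the accessory subunit of the mitochondrial polymerase, rose by 0.32 (SE 0.0621, limma adjusted p = 0.0315), while POLM changed by 0.05 (adjusted p = 0.524). Of 9 genes that ubiquitinate PCNA or reverse it, HLTF, a ligase that extends ubiquitin chains on PCNA, rose by 0.30 (limma adjusted p = 0.0285). USP1, which removes ubiquitin from PCNA, fell by 0.20 on the log2 scale (limma adjusted p = 0.0475). The calls of POLG2 and HLTF were lost without any 1 of the Control cultures or without Dox replicate 2 or 3 (adjusted p 0.059 to 0.114). USP1 lost its call without any 1 of the 6 cultures (adjusted p 0.0589 to 0.155), with median centring (0.0779) and with repeated quantile normalization (0.0691).

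**Figure D4:**
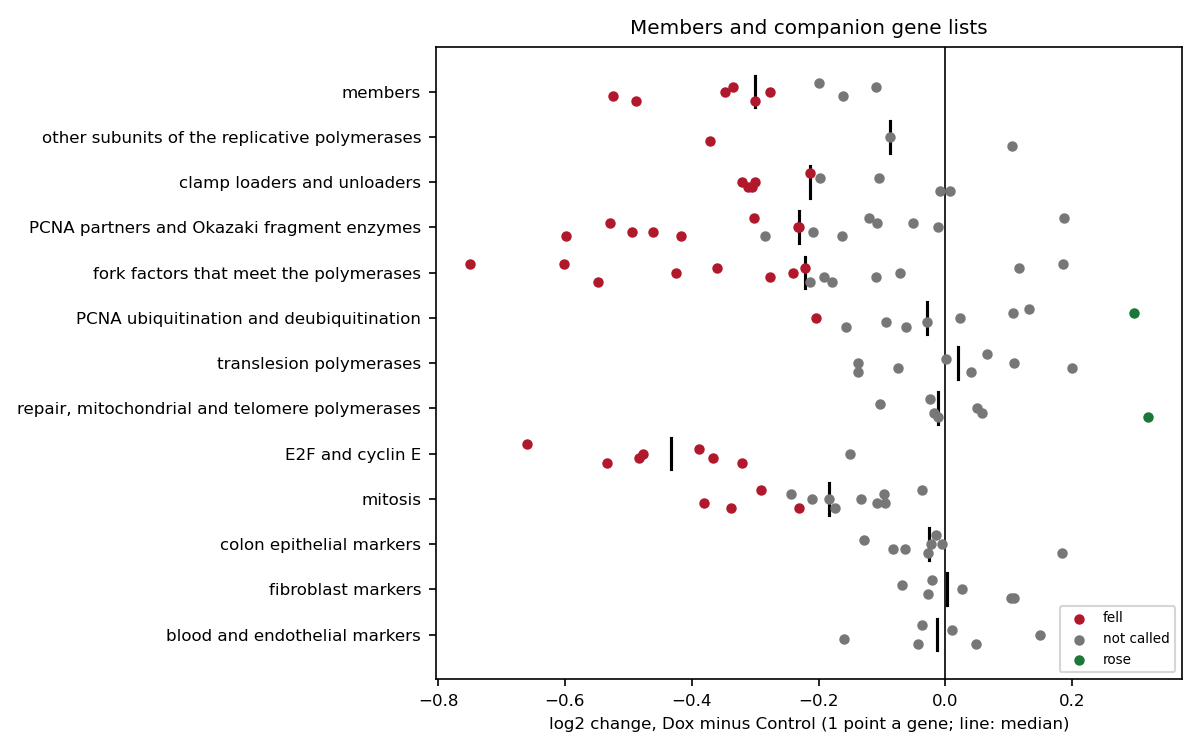
Log2 change, Dox minus Control, of each gene in the members and 12 companion lists, with 1 point a gene, coloured by its call, and a line at each median. The medians are -0.30 for the members and -0.43 for the E2F and cyclin E list, against 0.02 for the translesion polymerases and -0.01 for the repair, mitochondrial and telomere polymerases.

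Genes of the cell cycle were counted in 2 lists. Of 8 genes of the E2F and cyclin E list, 7 fell and none rose, with a median of -0.43. CCNE2 (-0.66), the cyclin that drives entry into S phase, CDC6 (-0.53), an origin licensing factor, CDC25A (-0.48), a phosphatase that activates cyclin-dependent kinases, and MYBL2 (-0.48), a cell cycle transcription factor, fell with limma adjusted p of at most 0.0155. Of 13 genes of mitosis, 4 fell and none rose, with a median of -0.18. Those that fell were CCNB1 (-0.38), AURKA (-0.34), PLK1 (-0.29) and KIF11 (-0.23). All 13 had a lower mean in Dox cultures, and at an unadjusted limma p under 0.05, 10 were lower and none higher. The fallen count was 7 with array weights and 8 with background subtraction, with dim genes left out, or with a trended and robust variance. It was 2 with the replicate block and 1 with every probe set tested on its own. KIF11 missed the threshold with median centring (adjusted p = 0.0636), repeated quantile normalization (0.0626), the replicate block (0.0683), every probe set tested on its own (0.141), and without any array but Dox replicate 2 (0.0719 to 0.131). PLK1 missed it without any array but Dox replicate 1 (0.0555 to 0.0752), and with the replicate block (0.0521). With every probe set tested on its own, PLK1 (0.0865) and AURKA (0.0554) also missed it. TOP2A (-0.04, limma adjusted p = 0.761) and CDK1 (-0.10, 0.188), both of the mitosis list, did not pass the test. The summed signal of a list is the log2 of its genes' unlogged signals added up, so the brightest genes weigh most. For the E2F and cyclin E list it ranged from 10.34 to 10.49 in Dox cultures, against 10.82 to 10.93 in Control cultures. The summed signal of the mitosis list ranged from 12.29 to 12.34 in Dox cultures, against 12.52 to 12.56 in Control cultures. The part of cell cycle distribution in the polymerase result was not tested. Without Dox replicate 3 the fallen counts of these lists were 2 and 2, without Control replicate 3 they were 3 and 2, without Control replicate 1 they were 4 and 2, and without Control replicate 2 they were 5 and 2.

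Markers of cell types foreign to the culture did not pass limma's test. Of 6 measured fibroblast markers, 4 lay above the olfactory receptor level, COL1A1 highest at a mean of 6.32. DCN (2.30) and LUM (1.73) lay far under that level. The summed signal of the 6 fibroblast markers ranged from 7.50 to 7.54 in Dox cultures, against 7.42 to 7.49 in Control cultures. COL1A1 (0.10, limma adjusted p = 0.145) and THY1 (0.11, 0.403) had the smallest adjusted p. Of 6 blood and endothelial markers only VWF lay above the olfactory receptor level, at 4.59, while PTPRC, the pan-leukocyte marker, was at 1.97. Their summed signal ranged from 6.27 to 6.38 in Dox cultures, against 6.30 to 6.35 in Control cultures, with CD3E at -0.16 (adjusted p = 0.256) and HBB at 0.15 (0.222). At an unadjusted p under 0.05, 1 fibroblast marker was higher and none lower, and no blood or endothelial marker was either. Of the colon epithelial markers none passed, with EPCAM at 0.18 (limma adjusted p = 0.0609) and KRT18 at -0.13 (0.294), and at an unadjusted p under 0.05 there was 1 higher and none lower. EPCAM passed as higher with array weights (adjusted p = 0.0171), background subtraction (0.0343), dim genes left out (0.0163), a trended and robust variance (0.0296), and without Dox replicate 1 (0.0451).

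The promoters of the members were examined because the genes moved together and the family is known for E2F control. RefSeq windows of 300 bases (GRCh38.p14), running from 250 before the transcription start to 50 after it, were held for 9 members, POLD3 not being among them. PCNA, POLD1 and PRIM2 have 2 windows each. The letters searched, on both strands, were TTCCCGC or TTGGCGC or TTGCCGC or TTCGCGC for E2F, CCAAT for NF-Y, TTTGAA for the cell cycle element CHR and GGGCGG for Sp1. E2F letters stood in the windows of 6 of 9 members (66.7%), against 15.3% of the 27305 genes in the table. All 5 fallen members with a window held them, as did POLE. POLD1, POLD2 and PRIM2, the last without a value of its own here, did not. Among genes tested that have a window, 19.9% held them, against 37.8% of the 585 that fell and 19.7% of the 483 that rose. These shares take no account of base composition, and a role of E2F in the changes was not tested. NF-Y letters stood in 5 of 9 members (55.6%, against 39.7% of all genes) and Sp1 letters in 6 (66.7%, against 48.3%). CHR letters stood in no member, against 18.2% of all genes. A match describes letters in a window and not binding, and the absence of a match says only that these letters are not there.

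The windows of the 6 members with E2F letters are printed with that of POLD1 (its more upstream start), which had the smallest change and none of them. They read 5' to 3' along the gene, and capitals mark E2F and NF-Y letters on either strand. They lie at chrX:24693668-24693967 (+ strand) for POLA1, chr11:65261712-65262011 (+) for POLA2, chr12:56752274-56752573 (-) for PRIM1 and chr14:49688165-49688464 (-) for POLE2. PCNA (more upstream start) lies at chr20:5126573-5126872 (-), POLE at chr12:132687293-132687592 (-) and POLD1 at chr19:50384073-50384372 (+).
POLA1: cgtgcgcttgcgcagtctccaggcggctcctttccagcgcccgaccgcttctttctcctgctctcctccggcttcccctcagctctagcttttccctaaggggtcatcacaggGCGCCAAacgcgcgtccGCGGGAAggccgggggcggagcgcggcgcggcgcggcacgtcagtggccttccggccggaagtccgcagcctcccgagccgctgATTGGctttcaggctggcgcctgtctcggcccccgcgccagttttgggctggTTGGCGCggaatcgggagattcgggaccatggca
POLA2: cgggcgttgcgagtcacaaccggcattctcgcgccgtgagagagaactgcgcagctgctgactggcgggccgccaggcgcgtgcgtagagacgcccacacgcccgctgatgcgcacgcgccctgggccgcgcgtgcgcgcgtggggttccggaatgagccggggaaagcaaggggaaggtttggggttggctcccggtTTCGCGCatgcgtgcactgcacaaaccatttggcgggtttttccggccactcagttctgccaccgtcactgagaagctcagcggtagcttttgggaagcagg
PRIM1: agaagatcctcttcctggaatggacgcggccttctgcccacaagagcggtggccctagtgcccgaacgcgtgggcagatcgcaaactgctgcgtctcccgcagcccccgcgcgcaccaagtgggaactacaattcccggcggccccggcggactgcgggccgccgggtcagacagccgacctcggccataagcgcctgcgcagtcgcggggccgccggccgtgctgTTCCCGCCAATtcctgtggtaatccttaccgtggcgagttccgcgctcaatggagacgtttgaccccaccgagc
POLE2: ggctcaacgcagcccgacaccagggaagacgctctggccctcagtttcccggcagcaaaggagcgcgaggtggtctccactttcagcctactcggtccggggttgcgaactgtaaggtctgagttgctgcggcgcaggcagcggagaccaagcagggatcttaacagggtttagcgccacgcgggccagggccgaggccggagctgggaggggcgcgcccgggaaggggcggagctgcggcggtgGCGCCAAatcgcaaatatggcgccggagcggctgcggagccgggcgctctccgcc
PCNA: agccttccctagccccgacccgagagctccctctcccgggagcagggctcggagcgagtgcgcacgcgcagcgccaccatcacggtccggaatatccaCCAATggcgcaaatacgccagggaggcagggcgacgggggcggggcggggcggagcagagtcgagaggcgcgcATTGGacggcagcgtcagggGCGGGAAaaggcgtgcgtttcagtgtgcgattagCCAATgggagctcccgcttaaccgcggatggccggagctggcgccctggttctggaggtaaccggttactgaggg
POLE: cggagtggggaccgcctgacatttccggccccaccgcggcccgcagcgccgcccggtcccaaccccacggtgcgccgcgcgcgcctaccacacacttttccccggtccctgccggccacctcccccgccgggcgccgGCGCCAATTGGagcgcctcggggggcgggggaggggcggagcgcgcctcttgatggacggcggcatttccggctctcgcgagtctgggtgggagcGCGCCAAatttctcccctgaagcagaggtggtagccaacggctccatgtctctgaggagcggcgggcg
POLD1: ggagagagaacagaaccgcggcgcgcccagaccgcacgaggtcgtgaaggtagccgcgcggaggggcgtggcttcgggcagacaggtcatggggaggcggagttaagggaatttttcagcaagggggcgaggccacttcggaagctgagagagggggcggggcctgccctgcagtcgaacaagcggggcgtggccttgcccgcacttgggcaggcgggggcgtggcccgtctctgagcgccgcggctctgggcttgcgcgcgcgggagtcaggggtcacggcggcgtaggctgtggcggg

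POLA1, the member with the second largest change, held 3 E2F matches, first bases at -137, -120 and 16 with the start site at 0, and 1 NF-Y match. POLA2, with the largest change, held 1 E2F match at -52 and no NF-Y match. In PRIM1 the E2F letters at -24 share a base with the NF-Y letters at -18, and in POLE2 the E2F letters at -5 run over the start site. The upstream PCNA window held 1 E2F match at -59, which overlaps Sp1 letters at -61, and 3 NF-Y matches, while its downstream window held 2 NF-Y and no E2F matches. POLE held 2 E2F matches, at -113 and -18, and the first overlaps NF-Y letters. POLE, with 2 E2F matches, changed by -0.16, and POLA2, with 1, by -0.52.

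**Figure D5:**
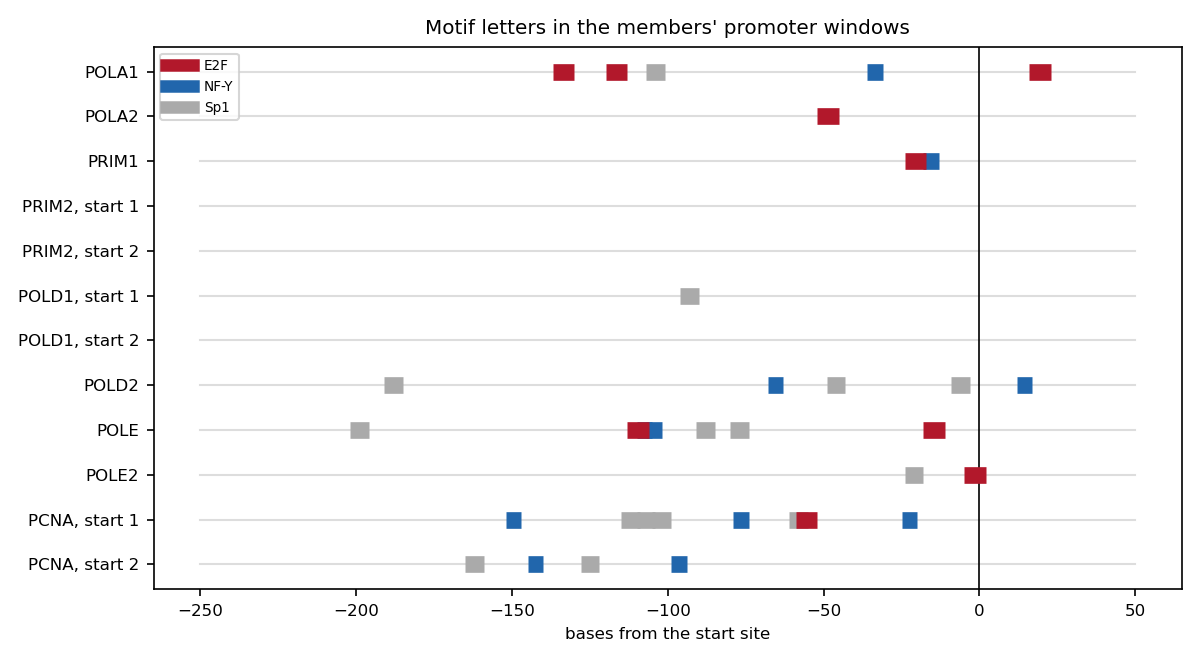
Positions of E2F, NF-Y and Sp1 letters on either strand in the promoter windows of 9 members, in bases from the start site at 0, with 1 line a window. E2F letters stand in the POLA1, POLA2, PRIM1, POLE, POLE2 and upstream PCNA windows and in no window of POLD1, POLD2 or PRIM2.

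The genes whose values ran closest to those of the members were found by the root mean square difference between a gene's values, centred on its own mean, and the members' mean centred values over the 6 arrays. Among 11198 genes that are no member and lie at or above the median level of 5.58, the 5 closest were PSMA7 (0.0181), a proteasome subunit, EXOSC10 (0.0199), a nuclease of the RNA exosome, DDIAS (0.0201), TRIP13 (0.0219), an ATPase of the spindle checkpoint and meiosis, and METTL13 (0.0227), a methyltransferase. Their changes ran from -0.34 to -0.27, and all fell with limma adjusted p of at most 0.0158. Of these 5 TRIP13 alone also passed without Dox replicate 3 and without Control replicate 3, where the other adjusted p ran from 0.0507 to 0.0726. Without Control replicate 1, PSMA7 (0.0607) and METTL13 (0.0600) missed the threshold, as did METTL13 without Control replicate 2 (0.0535). By the same measure POLE2 (0.0219), PCNA (0.0301) and POLD3 (0.031) were the most typical members, while POLA2 (0.113), POLD1 (0.11) and POLA1 (0.108) lay farthest from the mean. Each member's own values enter that mean and make its distance smaller, so members and other genes are not on equal terms. With 6 arrays in 2 groups, such a likeness mostly restates a change of similar size.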

How the data were processed

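Total RNA of 6 cultures was measured on Affymetrix arrays, 1 a culture. The authors deposited log2 values per probe set, and the submitters' processing notes name RMA. The version, build and annotation are not given in the sources used here. Values ran from 0.485 to 14.2, with array medians of 4.12 to 4.17. RMA equalises the arrays, so a shift common to all genes is not visible, and background makes small signals understate a change. Of 70523 probe sets, 23784 carried 1 gene symbol in the platform annotation, 1540 several, and 45199 were unnamed here. RefSeq's gene table gave current symbols for outdated ones. Where a gene had several, the one with the highest mean was kept. Each measured member had 1.

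Groups and replicate numbers came from the sample titles. Each of 22413 genes was tested in R 4.3.3 with limma 3.58.1, by lmFit and eBayes at their default settings, with Benjamini-Hochberg adjustment over all genes. The labels describe the cultures as independent, and their small number limits precision. The procedure was tested on simulated data. Tables used Python 3.11.15 and pandas 2.3.3, and figures matplotlib 3.10.9. The members, the 12 companion lists and the tests were chosen with earlier results of these data known, so no limma p-value was adjusted over a list alone. The exact permutation p-values of the 5 subunit differences were adjusted over those 5 only. The olfactory receptor yardstick follows such an earlier choice.

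Named genes were all members and SLBP. From each list they were the 2 genes with the smallest adjusted p and up to 2 more past the threshold with the largest changes, and, over all genes, the 5 closest to the members. Markers, lower-ranked genes of a list and the PRIM2 probe set named beyond this were chosen after their values were seen. The alternatives were repeated quantile normalization, median centring, subtraction of each array's 5th percentile with a floor of 16, dim genes left out, array weights, eBayes with a trend and robust variances, all probe sets tested singly, probe sets of a gene averaged, a replicate block, and fits leaving out 1 array each. A planned search for protein motifs is not reported here.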

Additional observations from a re-analysis of the deposited data

How the results depend on the processing

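All 9 members kept lower means in Dox cultures under every alternative, and no named gene with a call turned its direction. The median change of the members ranged from -0.31 to -0.28, and SLBP kept its call throughout. Of the 9, 2 fell when every probe set was tested on its own, a fit that adjusts over 70523 tests, and 2 to 6 fell when single arrays were left out. Counts over all genes moved more. With array weights 1714 genes fell and 1511 rose, with background subtraction 1149 and 1025, and without dim genes 1413 and 1156, against 732 and 656 in the reported fit. Background subtraction left out genes at its floor in every array. The fit without dim genes kept only those with a mean at or above the median of all genes. When every probe set was tested on its own, 158 probe sets fell and 186 rose. These are counts of probe sets, unnamed ones included, and not of genes. Leaving out single arrays gave 69 to 537 fallen and 63 to 561 risen genes. These fits have fewer arrays. Array weights ran from 0.478 for Dox replicate 2 to 2.96 for Dox replicate 3.

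With the replicate number as a block (replicate block) 174 genes fell and 157 rose, and 4 members fell, POLE2 (limma adjusted p = 0.0535) and PRIM1 (0.0653) not passing. The numbers were not taken to pair the cultures. Deviations from the group means correlated by 0.215, 0.13 and -0.06 over genes for the cultures of the same number, and not every culture correlated best with its own number. Of 24 named companion genes with a call, between 2 and 14 lost it when an array was left out, most without Dox replicate 3.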
